A study of Mus musculus with 8 samples.

Results

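Scd1, Scd2, Fads1, Fads2 and Fads6 are genes of enzymes that place double bonds into fatty acids, and their transcripts were followed in epithelial cells of the mouse distal colon with and without an intact Degs2 gene. They were taken by symbol, and all 5 matched 1 gene each among the 54141 gene IDs of the deposited table. The study made RNA-seq libraries from cells that EDTA had loosened from pieces of distal colon. WT is the wild-type group and Degs2_KO the group homozygous for a Degs2 mutation, with 4 libraries each and c57bl6/j as the strain of both. The sources used here do not give the kind of mutation, whether it acts in all tissues, or the age, sex and diet of the mice. Since no label ties each library to a mouse of its own, the p-values speak only of the spread among these 8 libraries, which may in part be technical.

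Values are CPM, estimated fragments relative to the library size after TMM normalization, unless a level per length is named. The libraries held between 32.8 and 49.8 M fragments. Degs2 itself lay between 106 and 151 CPM in WT and between 47.7 and 65.9 CPM in Degs2_KO, so the 2 ranges did not overlap, as for 0.558% of the tested genes with Degs2_KO lower. Its log2 fold change was -1.07 ± 0.15 (SE), with an adjusted p of 0.796 by edgeR, the main test, and of 3.32e-06 by DESeq2. The 8 epithelial markers, Epcam and keratin genes among them, summed to between 13223 and 16948 CPM in every library. Of the 8 adipocyte markers, Lep and Cfd had no fragment in any library and Adipoq reached at most 0.024 CPM. Cidec of the same list reached 9.11 CPM in Degs2_KO replicate 3, and the list summed to between 7.45 and 21.4 CPM per library. WT replicate 1 and Degs2_KO replicate 3 stood apart from the other 6 libraries on the first principal component, which held 50.3% of the variance (-53.9 and -59.1, against -1.09 to 43.0). In both, Hoxd13, a Hox gene of the hindmost gut, was almost absent, at 0.699 and 0.312 CPM, where the other 6 libraries lay between 38.8 and 85.3 CPM. Results that rest on these libraries are given with and without them.

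Desaturases of this type sit in the membrane of the endoplasmic reticulum and draw electrons from cytochrome b5. Scd1 and Scd2 are stearoyl-CoA desaturases, which turn saturated stearoyl- and palmitoyl-CoA into monounsaturated oleoyl- and palmitoleoyl-CoA. Fads2 takes the opening step on the plant-derived essential fatty acids, the elongase Elovl5 lengthens the product, and Fads1 adds the next double bond to yield arachidonic or eicosapentaenoic acid, precursors of prostaglandins. Fads6 is a little-studied relative. Scd1, Fads1 and Fads2 are known targets of the transcription factor SREBP-1, and Degs2 encodes a desaturase and hydroxylase that acts on sphingolipids.

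The coding sequence shows what the members share and where their reads could be mistaken for one another. Membrane desaturases hold iron in clusters of histidines, the histidine boxes. In Scd1 and Scd2 the first box is a histidine, 4 other residues and a histidine, and the third is a histidine, 2 others and a pair of histidines. The stretches below run 5′ to 3′ from GENCODE M21 transcripts, with the codons of the box in capitals.
Scd1 box 1: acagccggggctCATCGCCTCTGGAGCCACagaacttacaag
Scd2 box 1: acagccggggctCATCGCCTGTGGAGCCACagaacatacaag
Scd1 box 3: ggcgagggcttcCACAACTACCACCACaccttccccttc
Scd2 box 3: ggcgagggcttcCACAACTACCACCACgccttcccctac
The boxes fill codons 116 to 121 and 294 to 298 of Scd1, and codons 119 to 124 and 297 to 301 of Scd2. Between Scd1 and Scd2, 2 of 42 bases differed at the first box, 0 of 39 at the second and 2 of 39 at the third. Over the whole coding sequence 89.6% of 1074 aligned bases were the same. Over the whole transcript, 223 of the 4783 stretches of 50 bases in the longest-coding Scd1 transcript (4.66%) occurred in the annotated transcripts of another gene, 145 of them in Scd2. For Scd2 this was 217 of 5406 (4.01%), so most of either transcript is unique at this length. No source used here gives the read length.

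Fads1 and Fads2 carry a cytochrome b5 domain of their own at the front of the protein. It holds the haem motif, a histidine, a proline and 2 glycines, called the haem site below. Their last box opens with a glutamine in place of the histidine. These sites are shown for both, capitals again marking the codons of the site.
Fads1 haem site: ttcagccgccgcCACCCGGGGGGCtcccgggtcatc
Fads2 haem site: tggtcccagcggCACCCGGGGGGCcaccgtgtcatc
Fads1 last box: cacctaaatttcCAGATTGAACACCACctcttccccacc
Fads2 last box: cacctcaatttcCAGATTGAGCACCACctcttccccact
Fads6 histidine box: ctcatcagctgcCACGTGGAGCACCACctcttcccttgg
In the printed windows, 10 of 36 bases differed between Fads1 and Fads2 at the haem site and 3 of 39 at the last box. Their coding sequences were the same at 66.6% of 1348 aligned bases, and no stretch of 50 bases in Fads1 or Fads6 was found in another gene. For Fads2 it was 5 of 3101, all in Fads3. The coding sequence of Fads6, 342 codons against 447 for Fads1 and 444 for Fads2, held neither the haem site nor the box with a glutamine. Its 1 match to a histidine, 2 other residues and a pair of histidines lay at codons 277 to 281.

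On GRCm38, the assembly called mm10, 4 of the 5 genes lie on chromosome 19. Scd2 (ENSMUSG00000025203, 44293674 to 44306864, plus strand) and Scd1 (ENSMUSG00000037071, 44394455 to 44407879, minus strand) belong to a cluster with Scd3 and Scd4. Fads2 (ENSMUSG00000024665, 10062765 to 10101746, minus strand) and Fads1 (ENSMUSG00000010663, 10182888 to 10196877, plus strand) lie near each other with Fads3. Fads6 (ENSMUSG00000044788, 115279622 to 115297663, minus strand) is on chromosome 11. All are protein-coding, and the values count fragments over the exons of the whole gene. The only annotated genes overlapping a member were microRNA genes inside Scd2 and Fads1, both listed at 0 in the 8 libraries.

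Scd2 was by far the most abundant of the desaturase transcripts. Its level per length, CPM per kb of annotated exon, was 213 ± 45.1 in WT and 223 ± 34.4 in Degs2_KO (SD, n = 4), which placed its mean over the libraries 167th among the 16132 tested genes. Fads2 followed at 67.1 ± 22.0 and 61.4 ± 15.4 CPM per kb, rank 733. Scd1 was at 8.75 ± 1.99 and 11.9 ± 1.46 CPM per kb, and Fads1 at 3.28 ± 1.72 and 5.07 ± 1.20. Fads6 was barely expressed, at 0.122 ± 0.033 and 0.144 ± 0.066 CPM per kb, rank 15162.

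The order Scd2, Fads2, Scd1, Fads1, Fads6 held in each of the 8 libraries, also when length was taken from the longest transcript. The steps were uneven. Scd2 exceeded Fads2 by 2.61 to 4.91 times per length, Fads2 exceeded Scd1 by 2.99 to 12.7 times, Scd1 exceeded Fads1 by 1.76 to 3.55 times, and Fads1 exceeded Fads6 by 15.3 to 44.6 times. Of the summed level per length of Scd1 to Scd4, Scd2 made up 93.5% to 97.0% and Scd1 2.93% to 6.36%. Scd3 and Scd4 had between 6.75 and 35.0 scaled counts per library, and since they share stretches with Scd1 and Scd2 those counts are uncertain. Of the 4 Fads genes, Fads2 made up 76.5% to 92.2%, Fads1 2.05% to 12.8% and Fads3 5.36% to 11.3%. Fads1 and Fads3 overlapped in level per length, 1.76 to 6.43 against 4.71 to 7.03 CPM per kb, and their order was not the same in every library.

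**Figure D1:**
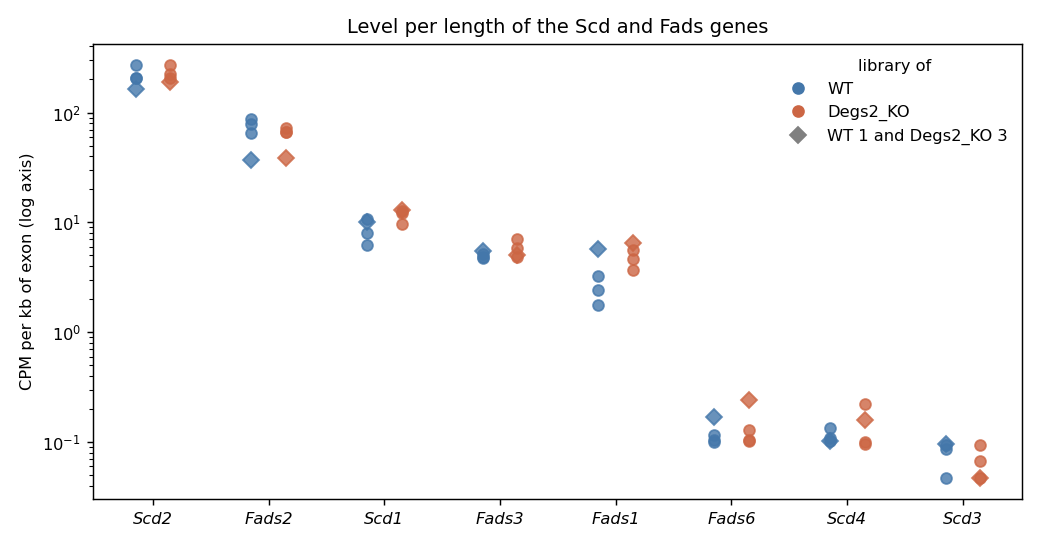
Level per length (CPM per kb of exon, log axis) of the Scd and Fads genes, 1 point per library, WT in blue and Degs2_KO in orange, with diamonds for WT replicate 1 and Degs2_KO replicate 3. Scd2 lies between 163 and 273 CPM per kb in the 8 libraries and Fads6 below 0.25, and in Fads2 the diamonds are the lowest points of both groups.

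No member passed the threshold between the genotypes. In edgeR's quasi-likelihood test each of the 5 had an adjusted p of 0.9996 (Benjamini-Hochberg, 16132 genes). This test called 0 genes in all, 0% of those tested, and DESeq2 called 2, with Degs2 but no member among them. At an unadjusted p under 0.05 edgeR found 183 genes, 1.13%, and 1 of the 5 members, Scd1. Evenly spread p-values would put 807 genes there, more than were found. Degs2 itself was not called by edgeR, so 0 calls do not show that levels were equal. The log2 fold change was above 0 for 4 of the 5 members, with a median of 0.23, beside 47.4% of all tested genes and a median of -0.0069. Without WT replicate 1 and Degs2_KO replicate 3 the members' median was 0.07. All 5 passed the filter on low counts. In such tissue samples, fewer cells of a type and less RNA per cell cannot be told apart.

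Scd1, which makes oleoyl-CoA, was at 48.9, 52.2, 30.6 and 39.5 CPM in WT replicates 1 to 4 and at 47.5, 61.9, 63.2 and 59.3 CPM in Degs2_KO replicates 1 to 4. Degs2_KO replicate 1 lay inside the WT range, and the other Degs2_KO libraries lay above every WT library. The group means of Scd1 were 42.8 ± 9.75 and 58.0 ± 7.16 CPM (SD, n = 4). On the log2 scale Degs2_KO was higher by 0.44 ± 0.17 (SE), a 1.35-fold difference with a 95% interval of 1.04 to 1.77 and an unadjusted p of 0.0295 by edgeR. Of all tested genes, 0.329% were higher in Degs2_KO at that unadjusted threshold. Leaving out 1 library at a time gave log2 fold changes between 0.31 (without WT replicate 3, its lowest library) and 0.55 (without WT replicate 2), with unadjusted edgeR p-values between 0.0128 and 0.0746. Without WT replicate 1 and Degs2_KO replicate 3 it was 0.47 ± 0.20 (unadjusted edgeR p 0.0503). The unadjusted edgeR p was 0.054 with the replicate number as a block. It was 0.137 with a block on adjoining ID numbers, which kept 3 libraries per group. With all 8 libraries the unadjusted p was 0.0199 by DESeq2 and 0.026 by limma-voom. Over all 20 alternatives, each by its own test, it ran from 0.0128 to 0.137.

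Scd2, the main stearoyl-CoA desaturase of these cells by transcript level, did not separate the groups. It was at 892, 1490, 1130 and 1137 CPM in WT replicates 1 to 4 and at 1222, 1129, 1039 and 1475 CPM in Degs2_KO replicates 1 to 4. The highest library of each group was close to that of the other, and the lowest of each was WT replicate 1 or Degs2_KO replicate 3. For Scd2 the log2 fold change came to 0.07 ± 0.17 (SE), and its 95% interval ran from 0.797-fold to 1.37-fold. It was 0.03 ± 0.16 without these 2 libraries.

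Fads2, which begins the conversion of essential fatty acids, was at 121, 286, 261 and 216 CPM in WT replicates 1 to 4 and at 221, 220, 127 and 240 CPM in Degs2_KO replicates 1 to 4. WT replicate 1 and Degs2_KO replicate 3 were far below the rest of their groups, and apart from them the libraries lay between 216 and 286 CPM. For Fads2 the log2 fold change came to -0.13 ± 0.28 (SE), with a 95% interval from 0.590-fold to 1.42-fold. Without those 2 libraries it was -0.16 ± 0.12, an unadjusted edgeR p of 0.22.

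Fads1, which completes arachidonic acid, was at 27.4, 15.7, 8.48 and 11.5 CPM in WT replicates 1 to 4 and at 17.7, 26.9, 31.0 and 22.2 CPM in Degs2_KO replicates 1 to 4. The 3 WT libraries other than replicate 1 lay below every Degs2_KO library, while WT replicate 1 was higher than 3 of them. The means were 15.8 ± 8.28 and 24.4 ± 5.76 CPM (SD, n = 4), a log2 fold change of 0.63 ± 0.34 (SE), 1.55-fold with a 95% interval of 0.906 to 2.64 and an unadjusted edgeR p of 0.098. Leaving out 1 library at a time gave log2 fold changes from 0.42 (without WT replicate 3) to 1.04, with unadjusted edgeR p-values from 0.00333 to 0.216. The unadjusted edgeR p was 0.118 with the replicate number as a block. It was 0.238 with a block on adjoining ID numbers, which kept 3 libraries per group. The largest size came without WT replicate 1: the log2 fold change was then 1.04 ± 0.25 with an unadjusted p of 0.00333 by edgeR (adjusted p 0.879). That fit keeps Degs2_KO replicate 3, so the libraries that stood apart are then found only in Degs2_KO. In it, 409 of 16367 tested genes were higher at an unadjusted edgeR p under 0.05. Without both WT replicate 1 and Degs2_KO replicate 3 the log2 fold change of Fads1 was 0.91 ± 0.25, with an unadjusted edgeR p of 0.00742 (adjusted p 0.999) and groups that did not overlap. In those 6 libraries the same held for 4.33% of the 16214 tested genes with Degs2_KO higher and for 5.14% with Degs2_KO lower, and 1.67% were higher at an unadjusted p under 0.05.

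Fads6 was at 1.13, 0.667, 0.764 and 0.692 CPM in WT replicates 1 to 4 and at 0.674, 0.854, 1.61 and 0.688 CPM in Degs2_KO replicates 1 to 4, from 27.6 to 67.5 scaled counts. The highest library of each group was again WT replicate 1 or Degs2_KO replicate 3. For Fads6 the log2 fold change came to 0.23 ± 0.34 (SE), and without Degs2_KO replicate 3 it was -0.14 ± 0.28. With WT replicate 1 left out as well it was 0.07 ± 0.24.

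**Figure D2:**
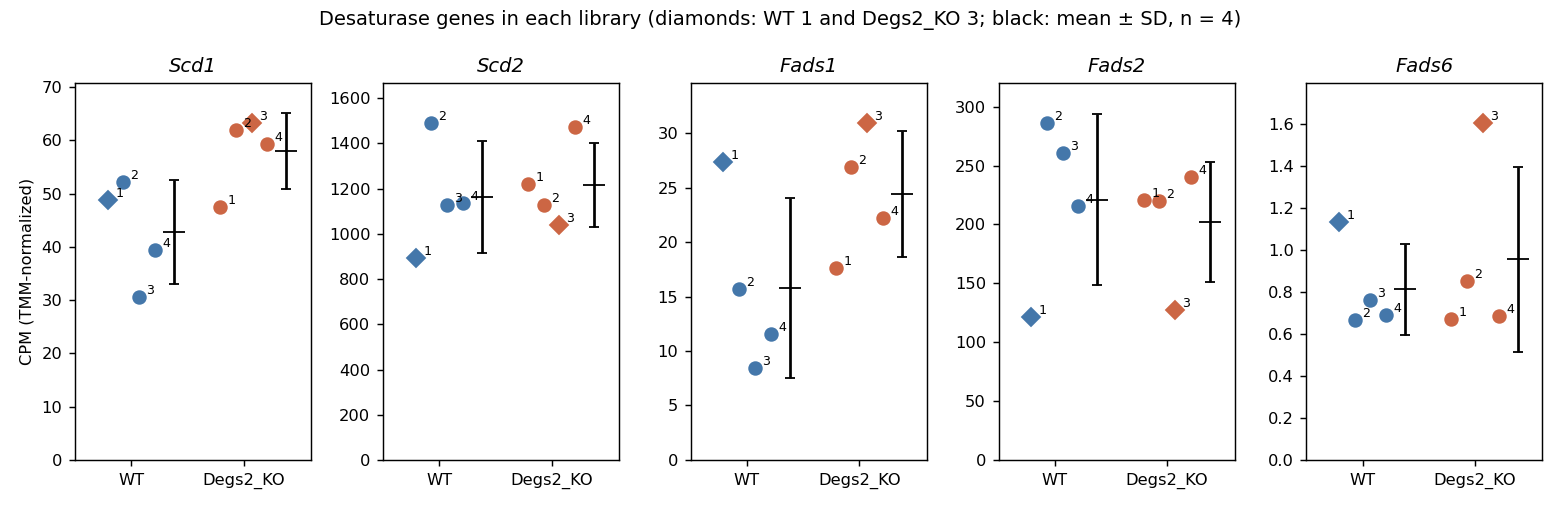
CPM of the 5 members in each library, numbered by replicate, with the mean ± SD of each group (n = 4) in black and diamonds for WT replicate 1 and Degs2_KO replicate 3. The diamonds are the lowest points of their groups in Scd2 and Fads2 and the highest in Fads1 and Fads6, and the groups overlap in every panel.

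**Figure D3:**
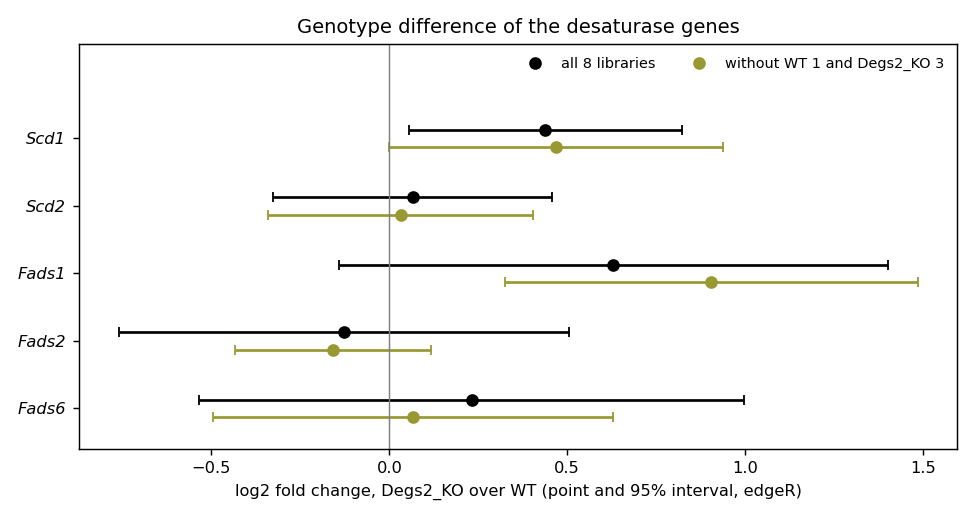
log2 fold change of each member, Degs2_KO over WT, with its 95% interval from edgeR, for all 8 libraries (black) and without WT replicate 1 and Degs2_KO replicate 3 (olive). With all libraries the interval for Scd1 lies just above 0 and the other 4 cross it, and without the 2 libraries the interval for Fads1 lies above 0 and that for Scd1 reaches just below it.

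The balance between paired enzymes within a library was not shown to differ between the genotypes. Scd1 stood to Scd2 in CPM as 0.0548, 0.035, 0.0271 and 0.0347 to 1 in WT replicates 1 to 4 and as 0.0389, 0.0548, 0.0609 and 0.0402 to 1 in Degs2_KO replicates 1 to 4. The Degs2_KO libraries were all above WT replicates 2 to 4 and overlapped with WT replicate 1. The mean log2 ratio was -4.77 ± 0.42 in WT and -4.39 ± 0.32 in Degs2_KO (SD, n = 4), a difference of 0.38 (exact 2-sided permutation p = 0.171, adjusted over the 2 ratios 0.286; the smallest p that 70 assignments allow is 0.0286). Without WT replicate 1 and Degs2_KO replicate 3 the difference was 0.46 (exact p = 0.1, the smallest that 3 against 3 allow).

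Fads2 exceeded Fads1 in CPM by 4.43, 18.2, 30.8 and 18.7 times in WT replicates 1 to 4 and by 12.5, 8.18, 4.12 and 10.8 times in Degs2_KO replicates 1 to 4. WT replicate 1 and Degs2_KO replicate 3 had the lowest ratios of all. The mean log2 ratio was 3.87 ± 1.20 in WT and 3.04 ± 0.71 in Degs2_KO (SD, n = 4), a difference of -0.84 (exact 2-sided permutation p = 0.286, adjusted over the 2 ratios 0.286). Without these libraries the difference was -1.08, and every remaining WT ratio was above every remaining Degs2_KO ratio (exact p = 0.1).

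Fads2 and Fads6 followed the libraries that stood apart. Fads2 was at 121 and 127 CPM in WT replicate 1 and Degs2_KO replicate 3 against a median of 231 CPM in the other 6 libraries, and Fads6 at 1.13 and 1.61 CPM against a median of 0.69. Scd2 was also lowest there, 892 and 1039 CPM against 1129 to 1490, and Fads1 highest, 27.4 and 31.0 CPM against 8.48 to 26.9. Scd1, at 48.9 and 63.2 CPM against 30.6 to 61.9, did not set both of them apart.

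Of 13 marker lists, 5 had summed levels that set both of these libraries apart from the other 6, as did 2 of the 9 lists of genes that work with the desaturases. The 6 posterior Hox genes summed to 143 and 140 CPM in WT replicate 1 and Degs2_KO replicate 3 and to between 367 and 493 CPM in the others. The 10 markers of small intestine and proximal gut summed to 563 and 567 CPM there and to between 177 and 389 CPM elsewhere. The 10 genes of dissociation and heat shock stress summed to 1142 and 1255 CPM against 2358 to 3665 CPM, and the 8 adipocyte markers, 4 or 5 of them at 0 in each library, to 15.9 and 21.4 CPM against 7.45 to 12.1 CPM. Of the latter the lipid-droplet gene Cidec was at 5.85 and 9.11 CPM against 1.17 to 2.98 CPM. The 8 T cell markers summed to 21.1 and 16.9 CPM against 1.98 to 10.9 CPM. The electron donors of the desaturases summed to 814 and 834 CPM against 673 to 768 CPM, and the genes that supply saturated acyl-CoA to 1272 and 1197 CPM against 1341 to 1599 CPM. By mean log2 CPM of tested genes, centred per gene, the supply genes were higher in both libraries (0.28 and 0.16 against -0.27 to 0.07). So were acyl-CoA synthetases (0.13 and 0.22 against at most 0.05) and esterification genes (0.19 and 0.24 against at most 0.007). Release and oxygenation genes were too (0.29 and 0.13 against at most 0.04). Electron donors did not stand apart by it (0.03 and 0.09 against -0.09 to 0.05). The part of these lists in the values of Fads2, Fads1, Scd2 and Fads6 was not tested.

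The genes whose log2 CPM followed Fads2 most closely over the 8 libraries, among 11035 genes with a mean log2 CPM of at least 1, were Best2 (Pearson r = 0.99), the posterior Hox gene Hoxb13 (0.99), Thbs4 (0.99), Tmprss13 (0.99) and Map3k5 (0.99). Best2, a chloride and bicarbonate channel of colonic goblet cells, was at 13.3 and 15.9 CPM in the libraries that stand apart and at 38.4 CPM or more in the rest. Hoxb13 was at 96.6 and 91.0 CPM against 234 CPM or more. In the 6 remaining libraries the same r values were 0.90, 0.95, 0.90, 0.86 and 0.88. Over 8 libraries such coefficients share the libraries and their scaling, and 404 genes reached an r of 0.9 with Fads2, 144 with Fads1, 34 with Scd1 and 16 with Scd2.

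Scd1 and Fads1 varied together apart from that split. In the 6 libraries other than WT replicate 1 and Degs2_KO replicate 3, their log2 CPM had a Pearson r of 0.97 and a Spearman rho of 0.94, and over all 8 an r of 0.90 and a rho of 0.81. The 6 libraries hold both genotypes, and in them both genes had the higher level in Degs2_KO (log2 fold changes of 0.47 ± 0.20 and 0.91 ± 0.25). The coefficients therefore include the difference between the groups. WT replicate 3 was lowest in both genes, and Degs2_KO replicate 3 was highest in both. Scd1 and Scd2 had an r of 0.50 and a rho of 0.09 in the 6 libraries, and Fads1 and Fads2 an r of -0.31 and a rho of -0.26, given as descriptions of these libraries without a test. Scd2 and the sparsely counted Fads6 ran in nearly opposite order, with a rho of -0.95 over 8 libraries and -0.94 over 6. Elovl5, the elongase that acts between Fads2 and Fads1, was the gene second closest to Scd1 (r = 0.95), after Wars (0.96), a tryptophanyl-tRNA synthetase, and before Ube2m (0.95), Arf1 (0.94) and Rab1a (0.94). Elovl5 was at 59.3, 57.0, 44.5 and 47.6 CPM in WT replicates 1 to 4 and at 54.9, 60.6, 66.8 and 65.9 CPM in Degs2_KO replicates 1 to 4. The genes closest to Scd2 were Nlk (0.96), Mansc1 (0.96), Mycn (0.95), Frmd4b (0.93) and Smpd3 (0.93), the last a neutral sphingomyelinase.

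**Figure D4:**
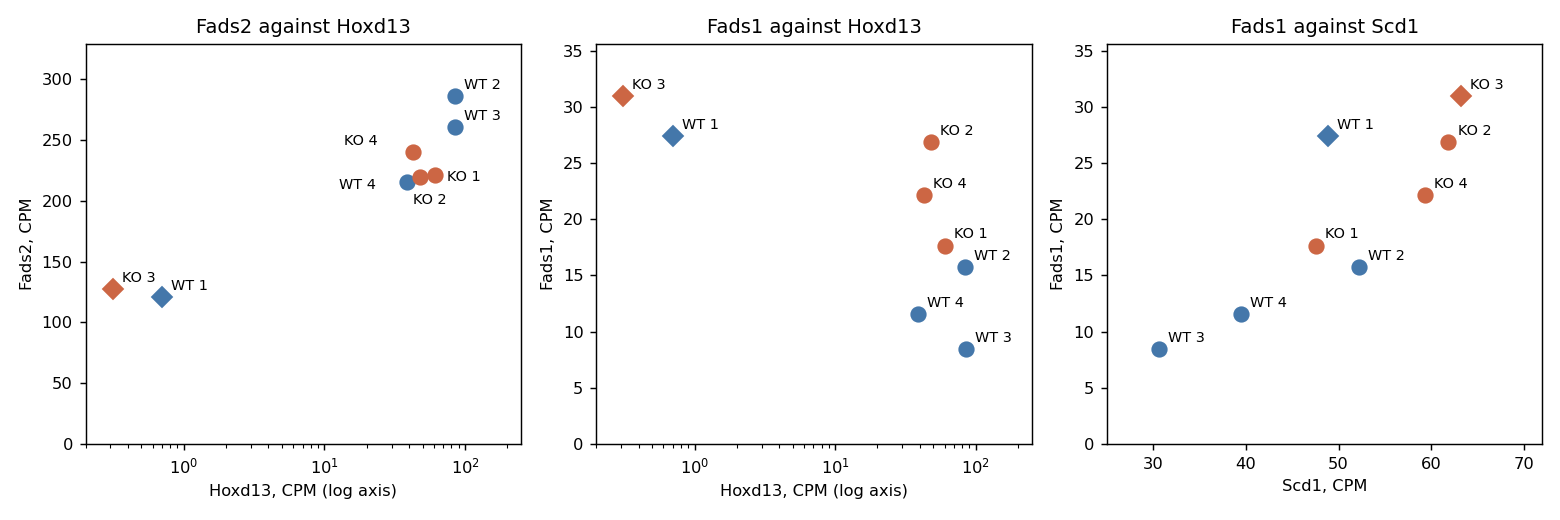
Fads2 and Fads1 against Hoxd13 (log axis), and Fads1 against Scd1, in CPM, 1 point per library labelled by group and replicate (KO, Degs2_KO), with diamonds for WT replicate 1 and Degs2_KO replicate 3. The diamonds lie below 1 CPM of Hoxd13, where Fads2 is at its lowest and Fads1 at its highest, and in the right panel Fads1 is higher where Scd1 is higher.

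The genes that supply, serve and use the desaturases gave 0 calls at edgeR's adjusted threshold in any of 9 lists, and at an unadjusted p under 0.05 edgeR found Hsd17b12, Acsl4 and Degs2, 3 of the 101 genes tested, beside 1.13% of all tested genes. The lists were chosen with earlier results of these data known. Of the other desaturases, the sphingolipid desaturase Degs1 had mean levels of 15.7 ± 3.79 (WT) and 19.5 ± 4.82 CPM (Degs2_KO; SD, n = 4), with a log2 fold change of 0.31 ± 0.21, and 3 of the 5 genes of that list, which holds Degs2, were above 0. Cytochrome b5 and its reductases, the electron donors, had 4 of 6 tested members above 0 and a median of 0.03, with Cyb5b, a cytochrome b5 of the mitochondrial outer membrane, at 0.10 ± 0.10 and the reductase Cyb5r1 at 0.13 ± 0.15. Cyb5b had mean levels of 447 ± 50.2 (WT) and 478 ± 36.7 CPM (Degs2_KO), a large part of the summed level of that list.

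Elongation genes had 9 of 10 tested members above 0 and a median of 0.08, beside 47.4% of all tested genes and a median of -0.0069. Their summed level ranged from 721 to 773 CPM in WT and from 781 to 823 CPM in Degs2_KO. These ranges did not overlap, and the sum was not tested. The sum of the other desaturases, which holds Degs2, did not overlap either, at 137 to 193 CPM in WT and 88.7 to 112 CPM in Degs2_KO. In the remaining lists of genes that work with the desaturases the sums overlapped. How often sums of other genes separate the groups was not examined. Elovl5 had a log2 fold change of 0.25 ± 0.11 (SE; unadjusted edgeR p 0.0504) and the ketoacyl-CoA reductase Hsd17b12 one of 0.20 ± 0.09 (unadjusted edgeR p 0.0468). Supply of saturated acyl-CoA had 6 of 9 tested members above 0 and a median of 0.07 (0.13 without WT replicate 1 and Degs2_KO replicate 3), with the acetyl-CoA carboxylase Acaca at 0.13 ± 0.14 and the citrate carrier Slc25a1 at 0.09 ± 0.20. Fasn, which makes the palmitate that Scd enzymes use, was between 323 and 418 CPM in WT and between 257 and 504 CPM in Degs2_KO.

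Transcription factors and sensors that act on desaturase genes had 5 of 16 tested members above 0 and a median of -0.04. Srebf1, the gene of SREBP-1, lay between 79.7 and 94.5 CPM in WT and between 79.4 and 95.2 CPM in Degs2_KO. The liver X receptor genes Nr1h3 and Nr1h2 had log2 fold changes of -0.22 ± 0.20 and -0.07 ± 0.07. Hnf4a, the 17th gene of that list, was not tested because its estimate had failed in at least 1 library.

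Sterol-responsive genes of cholesterol synthesis and uptake, which SREBP factors also switch on, had 14 of 15 members above 0 and a median of 0.19, or 0.29 without WT replicate 1 and Degs2_KO replicate 3. Idi1, an isomerase of the pathway, had a log2 fold change of 0.37 ± 0.19 and the lanosterol demethylase Cyp51 one of 0.33 ± 0.17, with unadjusted edgeR p-values of 0.0897 and 0.0898. Their summed level ranged from 2309 to 3141 CPM in WT and from 2395 to 3675 CPM in Degs2_KO.

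Acyl-CoA synthetases had 4 of 7 tested members above 0 and a median of 0.01. Acsl4, which prefers arachidonic acid, had a log2 fold change of 0.28 ± 0.09 (SE; unadjusted edgeR p 0.0147), and its libraries lay between 24.1 and 26.3 CPM in WT and between 27.2 and 35.1 CPM in Degs2_KO without overlap, as for 0.484% of the tested genes with Degs2_KO higher. Acsl5 had one of 0.10 ± 0.07. Genes of esterification had 11 of 17 members above 0 and a median of 0.08, with Soat1, which joins oleate to cholesterol, at 0.09 ± 0.08 and the glycerol phosphate acyltransferase Gpam at -0.19 ± 0.17. Genes that release and oxygenate polyunsaturated acids had 9 of 16 tested members above 0 and a median of 0.02, with Alox5ap at 0.38 ± 0.26 and Alox5, the lipoxygenase of leukotriene synthesis, at 0.45 ± 0.39.

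**Figure D5:**
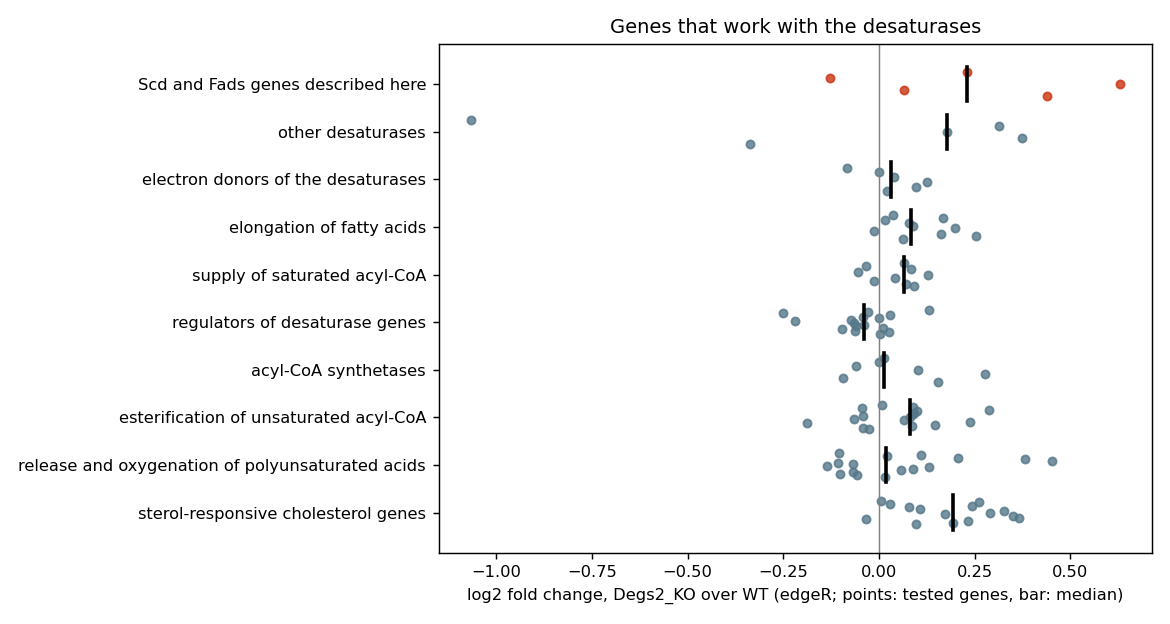
log2 fold change (Degs2_KO over WT, edgeR) of every tested gene of the Scd and Fads group and of 9 lists of genes that work with it, 1 point per gene, with a bar at the median of each list. List medians lie between -0.04 and 0.23, and the point at -1.07 is Degs2.

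The lists of handling and of other cells were counted in the same way, and their summed levels overlapped between the groups. The 10 stress genes were all above 0 (median 0.34), and their sum ranged from 1142 to 3043 CPM in WT and from 1255 to 3665 CPM in Degs2_KO. Of the 8 markers of dividing cells 7 were above 0, with a median of 0.14 (0.28 without WT replicate 1 and Degs2_KO replicate 3) and sums of 395 to 683 CPM in WT and 587 to 773 CPM in Degs2_KO. The 6 posterior Hox genes were all below 0 with a median of -0.52, and the 4 tested fibroblast genes of 8 all below 0 with a median of -0.98, summing to 4.14 to 31.7 CPM in WT and 1.49 to 16.2 CPM in Degs2_KO. No gene of these lists passed edgeR's adjusted threshold, and their part in the values of Scd1 and Fads1 was not tested.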

How the data were processed

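The values analysed are the estimated counts per gene that the authors deposited for 8 libraries of RNA from distal colon epithelium. The submitters' processing notes name mm10 and, in no stated order, Cuffdiff, Cufflinks 2.1.1, TopHat2 2.0.10 and cutadapt 1.9. Annotation, strandedness and read length: not given in the sources used here. Low values were multiples of 1 step per library (0.871 to 1.31; 96.9% to 97.2% whole within 0.02 fragments), from which the fragments per library were taken. In 47 genes Cuffdiff's status was FAIL or HIDATA in at least 1 library, and these were left out of the tests; the members had the status OK in all libraries.

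Estimated counts were rounded, filtered with filterByExpr (minimum count 10, total 15; 16132 genes left), normalized by TMM and tested with edgeR 4.0.16 in R 4.3.3 by the quasi-likelihood F test on genotype alone, p-values adjusted after Benjamini-Hochberg with a threshold of 0.05. log2 CPM used a prior count of 2. Level per length divides CPM by the union of exons in GENCODE M21 (GRCm38). Ratios were tested by exact permutation over 70 assignments (scipy 1.17.1). The test was tried on simulated data with 200 changed genes. These data lacked the split that sets WT replicate 1 and Degs2_KO replicate 3 apart, so the trial does not show how the test behaves here. DESeq2 1.42.0, limma 3.58.1, sva 3.50.0, other normalizations and filters, the authors' scaling undone, blocks and left-out libraries were alternatives.

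Members, lists and alternatives were chosen with earlier results of these data known. The rule for named genes takes the members, Degs2, from each pathway list the genes past the threshold or else the 2 with the smallest unadjusted p, and per member with a mean log2 CPM of at least 1 the 5 named genes with the highest Pearson r over the 8 libraries. Hoxd13, Fads3, Scd3, Scd4, Fasn, Srebf1, Hnf4a, Cidec, Lep, Cfd, Adipoq and Epcam were named outside it, after their values were seen.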

Additional observations from a re-analysis of the deposited data

How the results depend on the processing

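No gene was called by edgeR with all libraries, and 183 had an unadjusted p under 0.05. DESeq2 called 2 genes and edgeR with 1 surrogate variable 1 gene, Degs2 in both and no member; the count with each library left out was 0 to 0. Members stayed above the adjusted threshold in all settings run (smallest adjusted p 0.879, without WT replicate 1). Scd1 and Fads1 stayed above 0 in all 20 alternatives, with log2 fold changes of 0.31 to 0.55 and 0.42 to 1.04 when each library was left out in turn. For the others the sign depended on single libraries. Scd2 ranged from -0.04 to 0.21, below 0 without WT replicate 1 (-0.035) or Degs2_KO replicate 4 (-0.0401). Fads2 ranged from -0.32 to 0.04, above 0 without WT replicate 2 (0.022) or Degs2_KO replicate 3 (0.0400). Fads6 ranged from -0.14 to 0.44, below 0 without Degs2_KO replicate 3; it did not pass the stricter filter, which gave it no value. The cause was not tested. Without WT replicate 1 and Degs2_KO replicate 3 the median log2 fold change of acyl-CoA synthetases was 0.06, of release and oxygenation genes 0.07, of esterification genes 0.04 and of regulators -0.03. The difference in log2 ratio ranged from 0.24 to 0.58 for Scd1 to Scd2 and from -1.41 to -0.48 for Fads2 to Fads1, where 4 against 3 libraries cannot give an exact p under 0.0571.

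With the replicate number as a block the log2 fold changes were 0.46 for Scd1, 0.08 for Scd2, 0.74 for Fads1, -0.10 for Fads2 and 0.17 for Fads6, the ratio differences kept the values 0.38 and -0.84, and 99 genes had an unadjusted p under 0.05. Same-numbered libraries share only a number: the correlations of their deviations from the group means were -0.42, 0.44, -0.56 and -0.10. The fit without the block had 0 calls, so the block could end none, and it added none. With a block on adjoining ID numbers of the labels, which paired 3 libraries per group, 79 genes were under that p. Fads6 had at most 67.5 scaled counts in a library, the fewest of the members, where 3 fragments are worth 2.61 to 3.93 scaled counts.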

Other observations

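The genes closest to Fads1 over the 8 libraries were Nars (Pearson r = 0.99), which encodes the asparaginyl-tRNA synthetase, the cargo receptor gene Tmed10 (0.98), the proteasome subunit gene Psmc4 (0.98), Aars (0.97), which encodes the alanyl-tRNA synthetase, and Hprt (0.97). Nars was at 212, 180, 153 and 165 CPM in WT replicates 1 to 4 and at 182, 208, 213 and 201 CPM in Degs2_KO replicates 1 to 4, the same order of libraries as Fads1 within each group. Without WT replicate 1 and Degs2_KO replicate 3 the r was 0.99 for Nars, 0.97 for Tmed10, 0.98 for Psmc4, 0.97 for Aars and 0.96 for Hprt. Of the list of other desaturases, Degs1 was also highest in WT replicate 1 (20.9 CPM) and Degs2_KO replicate 3 (26.4 CPM) within their groups.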
